A study of Mus musculus with 4 samples.

Results

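Histone modifiers and chromatin regulators that recur in leukaemia were followed in mouse acute myeloid leukaemia cells made from Tet2 knockout or wild-type donors. The 43 genes were chosen by name from the 24497 mouse rows of the authors' expression table, and all 43 were found there. They comprise writers and erasers of histone methylation, acetyltransferases, deacetylases with their corepressors, the core of Polycomb repressive complex 2 (PRC2), the PR-DUB deubiquitinase, and remodelling proteins. The measure is RNA abundance in TPM, a share of all transcripts corrected for gene length, so levels of different genes can be set beside each other within a library.

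The Tet2 KO group holds 2 libraries from leukaemic cells whose bone marrow stem cell donors were Tet2-/-, and the WT group holds 2 libraries from wild-type donors. In both groups the cells carried NRAS, a RAS oncogene, and AE9a, a truncated AML1-ETO fusion protein. They were cultured in SCF (50 ng/ml), IL-3 and IL-6 (10 ng/ml) with G418 and puromycin, and were transplanted into CD45.1+ recipients of 6 to 8 weeks irradiated with 900 cGy. CD45.2 cells were then enriched from the recipients' spleens. The labels do not give the Tet2 allele, the sex or age of the donors, or which mouse each library came from, so the p-values describe how far these few libraries spread and that spread may be technical.

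Methyl and acetyl groups on histone tails are placed by writer enzymes, removed by erasers and read by other complexes. Trimethylation of H3K4 marks active promoters, PRC2 places H3K27 methylation at silenced genes, and acetylation generally accompanies transcription. AML1-ETO proteins bind DNA through the RUNX1 domain and recruit corepressors with histone deacetylases. TET2 oxidises 5-methylcytosine in DNA, and some histone modifiers, such as KDM2B, MLL1 (Kmt2a) and MLL2 (Kmt2b), bind unmethylated CpG dinucleotides through CXXC domains.

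On the log2(TPM + 1) scale of the tests, the 4 members that changed by more than 2-fold were Kdm5b, Hdac4 and Asxl1, higher in the Tet2 KO libraries, and Kdm2b, lower there. The 250 bases before their start sites are shown because TET2 acts on methylated cytosine, found mostly in CpG, and KDM2B binds unmethylated CpG. DNA methylation was not measured here. Each runs 5′ to 3′ on the gene's own strand, taken from RefSeq on GRCm38.p6, with every CpG in capitals, and for Kdm2b the most upstream of its starts is shown. In GENCODE the Hdac4 gene spans 91928779 to 92195699 on chromosome 1, minus strand. The Hdac4 window therefore lies inside the annotated gene, as does the Kdm2b window.
Kdm5b (chr1:134559928-134560177, plus strand): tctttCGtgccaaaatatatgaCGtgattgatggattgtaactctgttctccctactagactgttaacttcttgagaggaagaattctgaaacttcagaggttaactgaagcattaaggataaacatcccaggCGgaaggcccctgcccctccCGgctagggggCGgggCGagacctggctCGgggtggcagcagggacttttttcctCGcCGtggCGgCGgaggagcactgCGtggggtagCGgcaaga
Hdac4 (chr1:92180342-92180591, minus strand): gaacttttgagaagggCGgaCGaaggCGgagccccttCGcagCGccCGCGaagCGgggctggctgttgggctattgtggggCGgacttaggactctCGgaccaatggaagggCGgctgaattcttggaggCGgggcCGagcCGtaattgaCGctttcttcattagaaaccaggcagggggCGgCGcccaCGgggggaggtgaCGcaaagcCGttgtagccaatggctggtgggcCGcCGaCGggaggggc
Asxl1 (chr2:153345580-153345829, plus strand): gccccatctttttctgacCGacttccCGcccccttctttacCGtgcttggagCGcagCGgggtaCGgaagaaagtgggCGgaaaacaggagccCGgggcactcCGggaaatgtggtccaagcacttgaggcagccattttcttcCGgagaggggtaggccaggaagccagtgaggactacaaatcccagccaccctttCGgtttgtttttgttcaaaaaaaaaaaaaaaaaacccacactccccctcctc
Kdm2b (chr5:122989100-122989349, minus strand): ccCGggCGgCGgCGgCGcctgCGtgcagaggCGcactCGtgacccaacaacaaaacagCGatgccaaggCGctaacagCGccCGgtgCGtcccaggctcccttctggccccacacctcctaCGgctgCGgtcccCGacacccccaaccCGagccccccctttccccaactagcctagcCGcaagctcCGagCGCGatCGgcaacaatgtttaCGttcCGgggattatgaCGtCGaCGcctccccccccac

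The Kdm5b window held 13 CpG, that of Asxl1 11, that of Hdac4 23 and that of Kdm2b 27. At least as many were found before 63.6%, 70.4%, 25.2% and 15.5% of the 9116 tested genes with an entry. The windows of other Kdm2b starts held 12, 36 and 38 CpG, so its count depends on the start. Over the 34 members with an entry, the count ran from 6 to 48 with a median of 23, against a median of 16 over the tested genes. RUNX motifs, searched as TGTGGT and TGCGGT on both strands, stood in 20.6% of the members' windows (7 of 34) and in 17.8% of those of tested genes. The Asxl1 window held TGTGGT and the Kdm2b window TGCGGT. A match is a description of letters, not of binding.

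Library composition also differed by genotype label. ERCC spike-in RNAs took 2.95% and 3.19% of TPM in the Tet2 KO libraries and 4.66% and 4.62% in the WT libraries. The 20 most abundant genes took 21.8% and 19.7%, against 7.14% and 7.12%. A list of 14 neutrophil genes summed to 122690 and 103504 TPM in the Tet2 KO libraries and to 1978 and 2019 TPM in WT. The sums of 17 interferon-induced genes were 196 and 220 TPM against 10869 and 10930 TPM. Markers of other cell types were mixed. The 5 T cell markers in the table summed to 2.37 and 5.33 TPM in Tet2 KO and 3.47 and 3.16 TPM in WT, and neither tested one was called. The 5 B cell markers summed to 6.21 and 4.05 TPM against 9.31 and 8.40 TPM, with Cd79a higher, Cd79b lower and Pax5 at 0 to 0.1 TPM. The 4 NK cell markers summed to 0.17 and 0.56 TPM against 10.98 and 11.4 TPM, nearly all of it Klrk1, which was lower, while Ncr1 was at 0 in every library. All 5 tested dendritic cell markers were lower, the list summing to 61.9 and 41.8 TPM against 165 and 164 TPM, with Flt3 at 2.63 and 2.45 TPM in Tet2 KO and 71.0 and 69.3 TPM in WT. Both tested stroma and endothelium markers, Col1a1 and Pecam1, were higher (list sums 79.8 and 77.0 TPM against 53.5 and 53.2 TPM). Erythroid markers summed to 22.7 and 43.1 TPM against 3.90 and 2.37 TPM, with 1 of 2 tested higher. The part of these cells in the members' changes was not tested. Markers of the labelled cells were present, such as Ptprc at 292 to 413 TPM and Spi1 at 508 to 662 TPM. Their levels were not all alike between the groups. Of 6 leukocyte and myeloid identity genes 3 were higher (all genes 22.3%), 1 lower (all genes 26.7%) and 2 not called. The log2 changes in that list ran from -2.22 to 3.68. Tet2 stood at 63.7 and 68.1 TPM in the Tet2 KO libraries and at 43.5 and 43.7 TPM in WT, a value for the whole gene that does not check a deleted exon. For most genes the WT libraries were as alike as repeated draws of reads would be. Their robust variance was 0.995 times that of sampling over 540 genes, against 5.38 times for Tet2 KO over 582 genes. The ordinary variance, which outlying genes raise, was 3.01 times that of sampling in WT and 48.5 times in Tet2 KO. Beyond 5 SD lay 6 genes in WT and 72 in Tet2 KO. The WT libraries were counted as 1 sample, and WT values enter the tests as a single mean.

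Of the 43 members, 11 were higher and 7 lower in the Tet2 KO libraries at an adjusted p under 0.05 (limma with Benjamini-Hochberg adjustment over 11919 genes), and 25 did not pass. Members called made up 41.9% of the set, against 49.0% of all tested genes. The shares higher were 25.6% of members and 22.3% of all genes, and the shares lower were 16.3% and 26.7%. The median log2 change was 0.05 for the members and -0.11 for all genes, and the median absolute change was 0.41 against 0.61. On the log2(TPM + 1) scale, 9.30% of members changed by more than 2-fold in either direction, and 30.9% of all tested genes did. By the ratio of mean TPM a further member, Kmt2c, exceeded 2-fold, at 2.02. For 37 members (86.0%) both Tet2 KO libraries lay on one side of both WT libraries, 20 above and 17 below. For all genes the share was 87.0%, with 38.4% above and 48.7% below. The groups overlapped for Ezh2, Suz12, Setd1a, Men1, Nsd1 and Suv39h1. Since RNA is measured in bulk, fewer cells of a type and less RNA per cell cannot be told apart.

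The directions depended on how libraries were scaled. With spike-in totals set equal (ERCC scaling), the median of all genes moved to 0.44 and 54.1% of all genes were called. Of the members, 26 were higher (all genes 41.6%) and 1, Kdm2b, was lower (all genes 12.5%). The share of calls that were higher was then 96.3% among members and 76.9% among all genes, against 61.1% and 45.6% without it. When TPM were rescaled without the ERCC RNAs, the ribosomal RNA precursor Rn45s and the 20 most abundant genes, 14 members were higher (all genes 26.0%) and 3 lower (all genes 18.8%), namely Kdm2b, Hdac1 and Phf6, with 44.8% of all genes called. All 11 members called higher kept that call under both scalings. Each scaling moved the median of all genes upward, from -0.11 to 0.44 and to 0.07, so a higher call was likely to be kept. With quantile normalization and with median centring 10 of them kept it, and Bcor lost it. With both WT libraries as samples, 14 were higher (all genes 29.5%) and 13 lower (all genes 37.9%), with 67.4% of all genes called. In that design 20 members were higher and 15 lower without Tet2 KO replicate 1, when 4321 of all genes were higher and 4987 lower. Without Tet2 KO replicate 2 the counts were 17 and 16 members, and 3974 and 5674 of all genes. Without the filter on low values, no member passed limma's threshold, although 15 had an unadjusted p under 0.05.

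**Figure D1:**
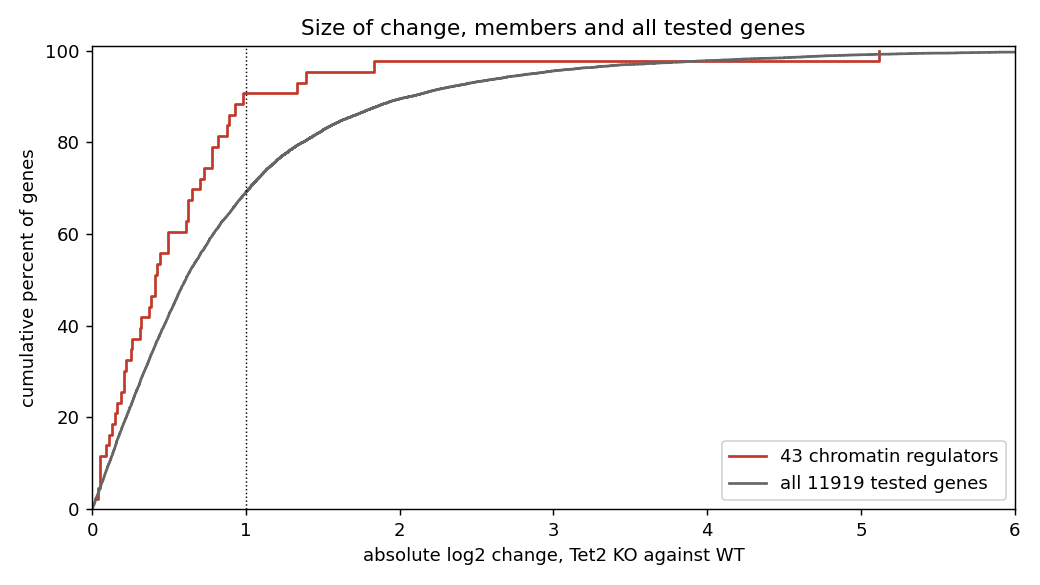
Cumulative percent of genes (vertical axis) by absolute log2 change between Tet2 KO and WT (horizontal axis) for the 43 chromatin regulators and for all 11919 tested genes. The dotted line marks 2-fold on the log2(TPM + 1) scale, which 9.30% of the regulators and 30.9% of all genes exceeded.

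The median level of the members was close in all libraries, at 45.9 and 45.7 TPM in the Tet2 KO libraries and 42.7 and 42.2 TPM in the WT libraries. Together the members made up 0.243% and 0.240% of TPM in Tet2 KO and 0.230% and 0.229% in WT. The order of levels differed between the groups. In the Tet2 KO libraries the 4 highest were Ep300, Chd4, Kdm6b and Kdm1a, in an order that differed between these libraries, at 129 to 150 TPM. In the WT libraries Kdm1a (225 and 222 TPM) and Chd4 (200.2 and 198 TPM) stood first, followed by Hdac1 at 106 and 105 TPM. Lowest of all was Kdm2b in the Tet2 KO libraries and Kdm5b in the WT libraries.

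**Figure D2:**
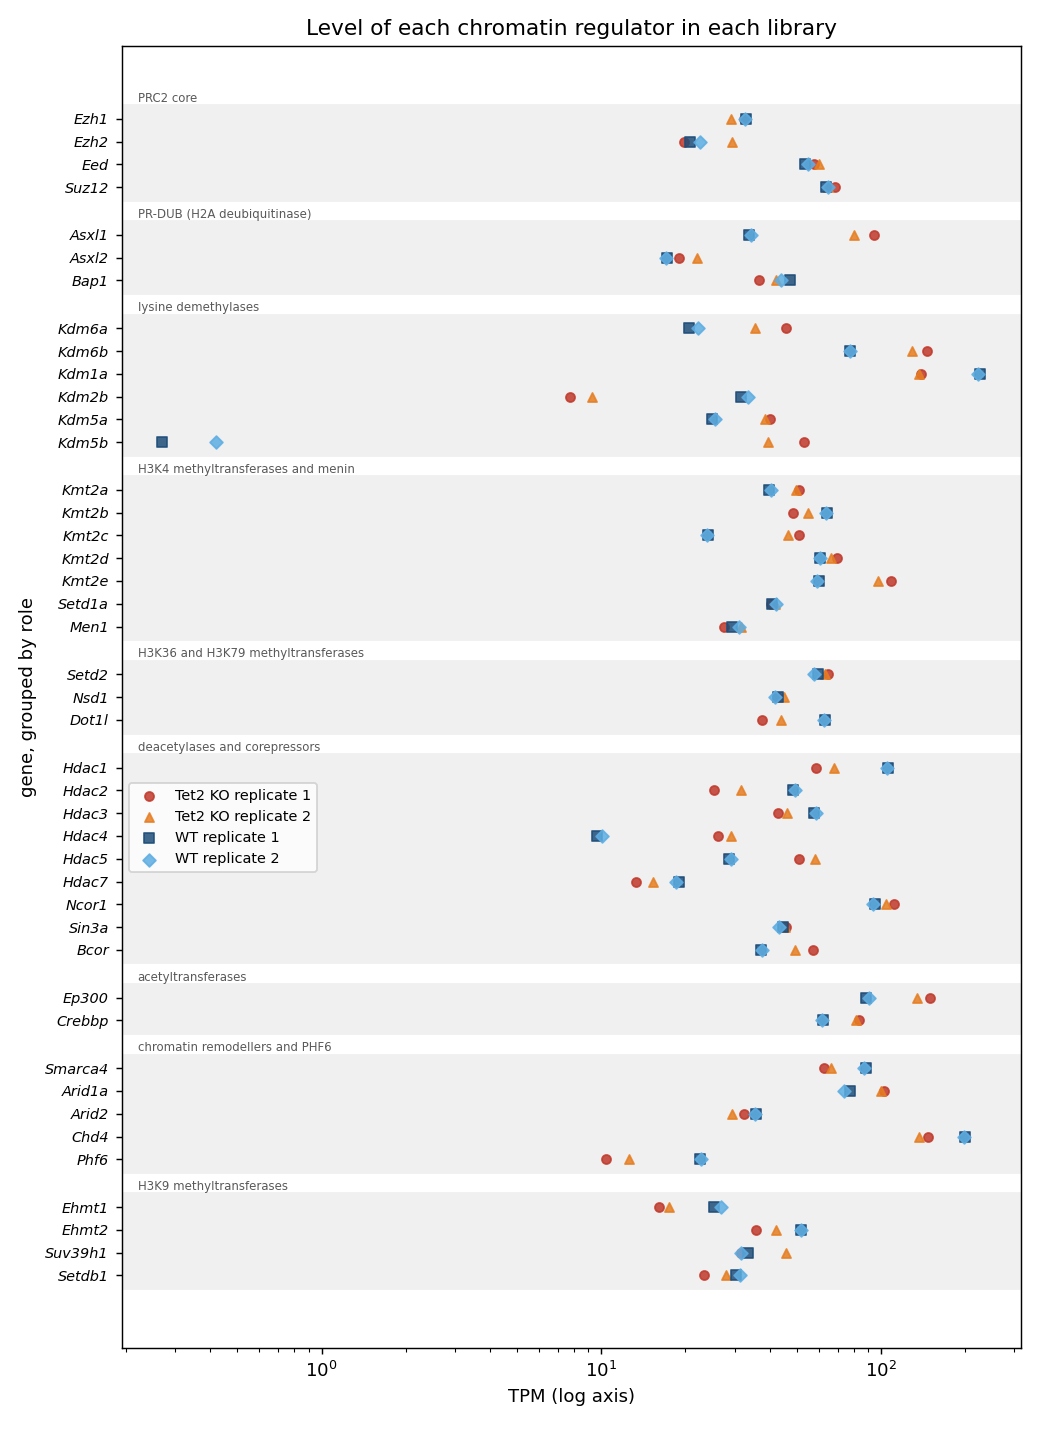
TPM (horizontal axis, log scale) of the 43 genes in each of the 4 libraries, grouped by role, with a point for each library. Kdm5b is the 1 gene under 1 TPM in the WT libraries, and 39 of the 43 genes change by less than 2-fold on the log2(TPM + 1) scale.

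Among the members, lysine demethylases held the widest changes, and all 6 were called, against 49.0% of all tested genes. Of 17 other lysine demethylases tested, 4 were higher (all genes 22.3%) and 0 lower (all genes 26.7%). KDM5B removes methyl groups from H3K4 and has been described as a repressor of promoters. Its gene (chromosome 1, 134560171 to 134635285, plus strand, mm10) had 52.9 and 39.5 TPM in the Tet2 KO libraries and 0.27 and 0.42 TPM in the WT libraries. The WT values correspond to about 25.5 and 35.7 reads over the longest annotated transcript, so the transcript was detected there but scarce. The mean was 46.2 ± 9.44 TPM in Tet2 KO (SD, n = 2) and 0.345 TPM in WT, a 134-fold ratio of means. On the log2(TPM + 1) scale, which understates changes of low genes, it was higher by 5.12 ± 0.28 (standard error; limma adjusted p = 6.88e-10), or by 5.51 with ERCC scaling. Its relative Kdm5a, an H3K4 demethylase too, stood at 40.2 and 38.4 TPM in Tet2 KO and 24.8 and 25.6 TPM in WT. Kdm5a was higher by 0.62 ± 0.20 (limma adjusted p = 0.0196), a call lost with limma's plain variance fit (no abundance trend, not robust).

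KDM2B removes methyl groups from H3K36 and brings a BCOR-containing Polycomb complex to unmethylated CpG islands. Kdm2b (chromosome 5, 122870665 to 122989823, minus strand, mm10) had 7.70 and 9.27 TPM in the Tet2 KO libraries and 31.6 and 33.5 TPM in WT. It fell by 1.83 ± 0.27 on the log2 scale (limma adjusted p = 4.06e-05), and by 1.27 with ERCC scaling (adjusted p = 0.00360), the one member lower under every scaling tried. RefSeq lists several starts for this gene, and a gene-level TPM does not tell the transcripts apart. Its partner Bcor, a corepressor, went the other way, at 57.1 and 49.3 TPM in Tet2 KO and 37.4 and 37.6 TPM in WT. The change of Bcor was 0.49 ± 0.19 (limma adjusted p = 0.0481), a call lost with quantile normalization, with median centring and with limma's plain variance fit.

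The H3K27 demethylases were both higher. Kdm6b, whose product JMJD3 is known as an inducible enzyme of myeloid cells, had 147 and 129 TPM in the Tet2 KO libraries and 77.8 and 77.5 TPM in WT, a change of 0.82 ± 0.20 (limma adjusted p = 0.00341). Kdm6a, the X-linked gene of UTX, had 45.6 and 35.4 TPM in Tet2 KO and 20.7 and 22.1 TPM in WT, a change of 0.88 ± 0.22 (limma adjusted p = 0.00390). Kdm1a encodes LSD1, a partner of the CoREST corepressor that acts on H3K4 and is a drug target in leukaemia. It had 139 and 136 TPM in Tet2 KO and 225 and 222 TPM in WT and fell by 0.70 ± 0.21 (limma adjusted p = 0.0116). With ERCC scaling its change was -0.10 (adjusted p = 0.691), and the call was also lost with median centring and when the most abundant genes were left out of the total.

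X-linked members were set beside markers of sex chromosomes, whose values differed between the libraries but did not pass the test as reported. Xist, the RNA of the inactive X chromosome, stood at 86.1 and 28.2 TPM in the Tet2 KO libraries and at 0.34 TPM in each WT library, a change of 5.23 ± 1.08 (limma adjusted p = 0.102). In the Tet2 KO library with more Xist, Kdm6a was higher, as were all other members called higher except Hdac4 and Hdac5. Of those others, Bcor alone is X-linked. Female cells of mice express both copies of Kdm6a. Its Y-linked relative Uty had 2.54 and 7.01 TPM in Tet2 KO and 10.2 and 9.84 TPM in WT, and the Y-linked H3K4 demethylase gene Kdm5d had 2.94 and 8.35 TPM against 15.5 and 15.9 TPM. Their changes, -1.05 ± 0.50 and -1.46 ± 0.56, did not pass (limma adjusted p = 0.133 and 0.0911). The X-linked Kdm5c, at 52.4 and 46.0 TPM in Tet2 KO and 42.1 and 42.1 TPM in WT, did not pass either (change 0.22 ± 0.19, limma adjusted p = 0.370). Of the other X-linked members, Bcor was higher, Phf6 lower and Suv39h1 not called. The X-linked Ddx3x had 297 and 241 TPM in Tet2 KO and 186.5 and 186.6 TPM in WT, and Eif2s3x 105 and 98 TPM against 124 and 127.5 TPM. The Y-linked Ddx3y had 11.9 and 34.4 TPM in Tet2 KO and 52.1 and 51.0 TPM in WT, and Eif2s3y 29.8 and 90.4 TPM against 107.4 and 107.2 TPM. None of these X- and Y-linked genes outside the members passed in the reported fit. With ERCC scaling Xist, Ddx3x and Kdm5c were called higher (limma adjusted p = 0.0233, 0.0130 and 0.0149). When the most abundant genes were left out, Xist and Ddx3x were called higher (limma adjusted p = 0.0180 and 0.0428). With both WT libraries as samples Xist and Ddx3x were called higher, and Kdm5d and Eif2s3x lower. The part of the sex chromosomes in the change of Kdm6a was not tested.

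The PRC2 core showed the smallest changes of any group, with 0 of 4 genes called (all genes 49.0%). Suz12, a scaffold subunit, had 68.3 and 64.5 TPM in the Tet2 KO libraries and 63.5 and 64.9 TPM in WT, and Eed, which binds methylated H3K27, had 57.6 and 60.0 TPM against 53.7 and 55.0 TPM. The catalytic subunit genes differed in steadiness. Ezh1 had 32.4 and 29.2 TPM in Tet2 KO and 32.8 and 32.7 TPM in WT. Ezh2, which is known to follow proliferation, had 19.8 and 29.4 TPM against 20.8 and 22.6 TPM. Its change was 0.15 ± 0.26 (limma adjusted p = 0.665). Of 18 listed proliferation genes 12 were higher (all genes 22.3%) and 0 lower (all genes 26.7%). That list also separated the Tet2 KO libraries, at summed levels of 1096 and 1492 TPM against 798 and 804 TPM in WT. Mki67, from that list, had 148 and 209 TPM in Tet2 KO and 86.8 and 87.3 TPM in WT. The part of proliferation in the values of Ezh2 was not tested. Unadjusted p-values under 0.05 were absent from the PRC2 core, whose smallest adjusted p was 0.644 for Eed. ERCC scaling called 3 of the 4 higher (Suz12, Eed and Ezh2, all genes 41.6%), with a group median of 0.67 in place of 0.08. Without Tet2 KO replicate 1, and with both WT libraries as samples, Eed and Ezh2 were called higher and Ezh1 lower.

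In the PR-DUB, which takes ubiquitin off histone H2A, Asxl1 changed while the members Asxl2 and Bap1 were not called. Of 6 tested PR-DUB partners that are not members, 2 were higher (Foxk1 and Mbd6, all genes 22.3%) and 0 lower (all genes 26.7%). ASXL1, a cofactor often mutated in human myeloid disease, is encoded by Asxl1 (chromosome 2, 153345829 to 153404007, plus strand, mm10). It had 94.4 and 79.9 TPM in the Tet2 KO libraries and 33.8 and 34.2 TPM in WT, a change of 1.33 ± 0.19 (limma adjusted p = 3.66e-05), or 1.91 with ERCC scaling. Asxl2 had 19.0 and 22.0 TPM in Tet2 KO and 17.2 and 17.0 TPM in WT, a change of 0.25 ± 0.24 (limma adjusted p = 0.423). Bap1, the catalytic subunit gene, had 36.7 and 42.1 TPM in Tet2 KO and 47.2 and 44.0 TPM in WT, a change of -0.21 ± 0.20 (limma adjusted p = 0.401). Within a library, where scaling cancels, the ratio of Asxl1 to Bap1 was 2.57 and 1.90 in Tet2 KO against 0.715 and 0.779 in WT.

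Among H3K4 methyltransferases and their partner menin, 2 of 7 were called, both higher (all genes 49.0% called and 22.3% higher). Kmt2c, which with Kmt2d encodes the enzymes that methylate H3K4 at enhancers, had 50.7 and 46.4 TPM in the Tet2 KO libraries and 24.2 and 23.9 TPM in WT (change 0.98 ± 0.20, limma adjusted p = 0.000742). Kmt2e, a family member not known to methylate H3K4, had 108 and 97.7 TPM in Tet2 KO and 59.8 and 59.1 TPM in WT (change 0.78 ± 0.19, limma adjusted p = 0.00348). Kmt2d, at 69.9 and 66.2 TPM in Tet2 KO and 60.7 and 60.5 TPM in WT, was not called. Kmt2a, the MLL gene broken in human leukaemias, had 50.8 and 49.7 TPM in Tet2 KO and 39.8 and 40.5 TPM in WT. Its change of 0.32 ± 0.19 did not pass (limma adjusted p = 0.177), but did with ERCC scaling and when the most abundant genes were left out of the total. Kmt2b, its closest relative, had 48.6 and 54.8 TPM in Tet2 KO and 64.2 and 63.8 TPM in WT (change -0.31 ± 0.19, limma adjusted p = 0.196). Setd1a and Men1 moved least, by -0.02 ± 0.19 and -0.04 ± 0.22, and neither passed.

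Of the 3 H3K36 and H3K79 enzymes, Dot1l alone was called (all genes 49.0%). DOT1L, the H3K79 methyltransferase on which MLL-fusion leukaemias depend, is encoded by a gene that had 37.6 and 43.8 TPM in Tet2 KO and 63.3 and 62.6 TPM in WT. It fell by 0.62 ± 0.20 (limma adjusted p = 0.0155), and its change was -0.04 with ERCC scaling (adjusted p = 0.867). The call was also lost when the most abundant genes were left out of the total and with limma's plain variance fit. Setd2, which trimethylates H3K36, had 64.7 and 63.1 TPM in Tet2 KO and 59.4 and 57.5 TPM in WT, and Nsd1 had 42.5 and 45.0 TPM against 42.7 and 41.7 TPM. Neither passed (changes 0.13 ± 0.19 and 0.05 ± 0.19).

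**Figure D3:**
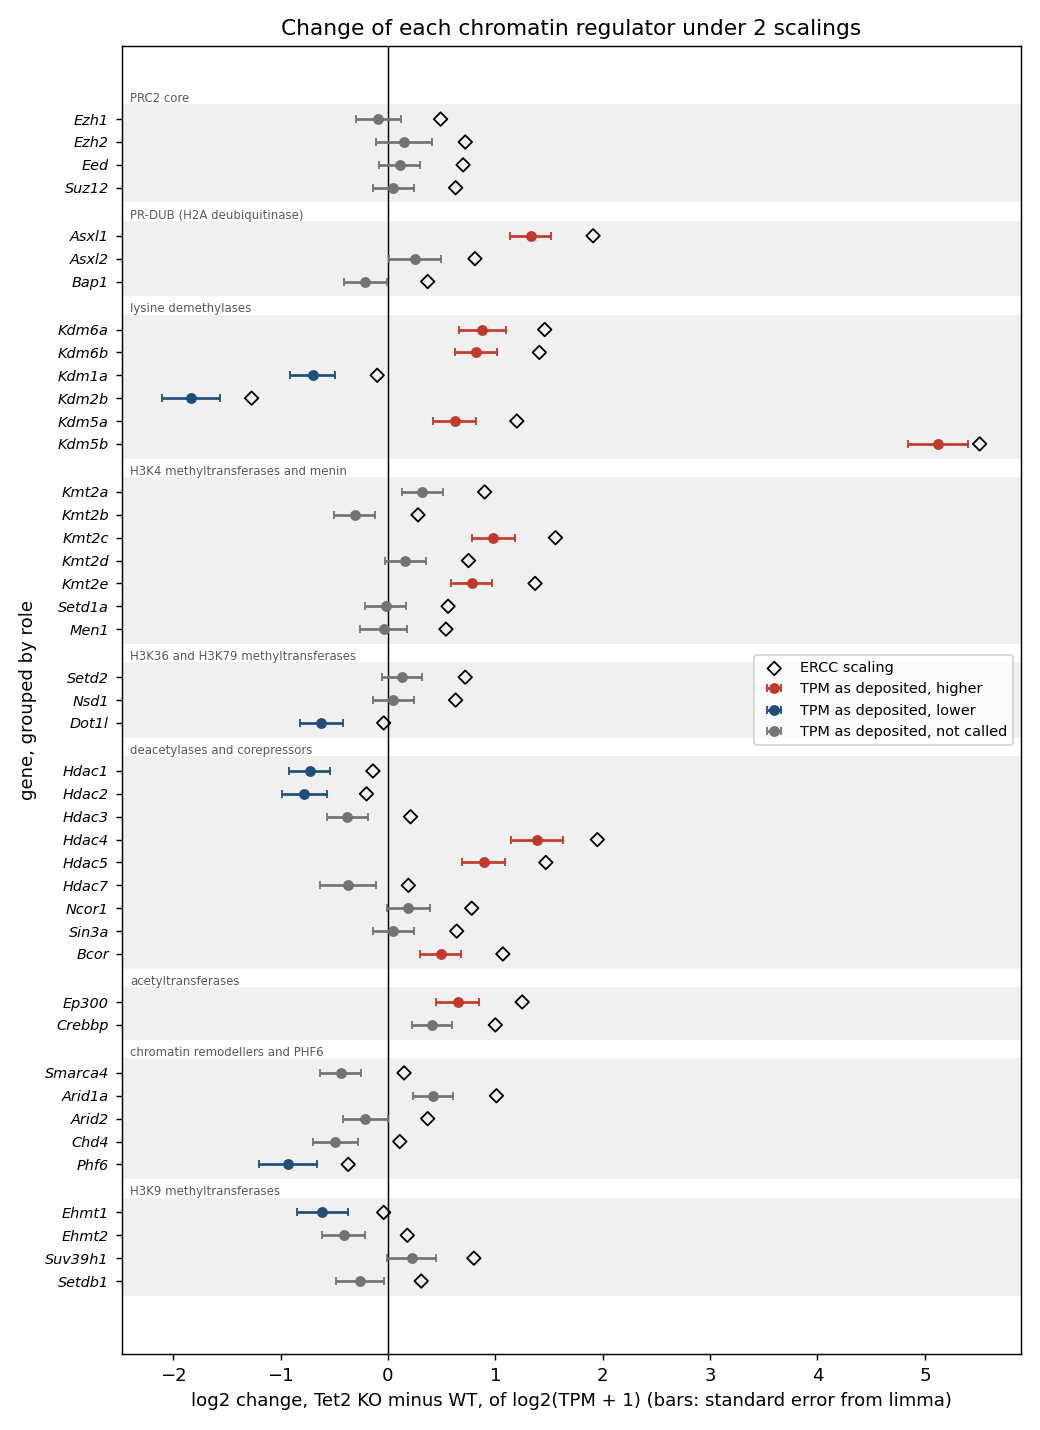
Log2 change, Tet2 KO minus WT, of each gene on the log2(TPM + 1) scale (horizontal axis), with bars of 1 standard error from limma and colours for the call, and open diamonds for ERCC scaling. ERCC scaling moves each gene to the right, and Kdm2b is the one gene that is still called lower.

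Of the deacetylase and corepressor genes, 3 of 9 were higher (all genes 22.3%) and 2 lower (all genes 26.7%). The products of the class I genes Hdac1, Hdac2 and Hdac3 form the core of nuclear corepressor complexes, and those of class IIa genes shuttle between nucleus and cytoplasm. Hdac1 had 58.4 and 68.1 TPM in the Tet2 KO libraries and 106 and 105 TPM in WT (it fell by 0.73 ± 0.19, limma adjusted p = 0.00549). Hdac2, which is often found in the same complexes, had 25.2 and 31.5 TPM in Tet2 KO and 48.5 and 49.4 TPM in WT (it fell by 0.78 ± 0.21, limma adjusted p = 0.00722). Hdac3, the deacetylase of NCOR complexes, had 42.7 and 46.2 TPM in Tet2 KO and 57.5 and 58.7 TPM in WT, a change of -0.38 ± 0.19 that did not pass (limma adjusted p = 0.110). With ERCC scaling none of these genes passed, at changes of -0.14, -0.20 and 0.21, and Hdac2 also lost its call when the most abundant genes were left out of the total.

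Of the class IIa genes, Hdac4 had 26.1 and 29.1 TPM in the Tet2 KO libraries and 9.67 and 10.1 TPM in WT, a change of 1.39 ± 0.24 (limma adjusted p = 0.000180). Hdac5 had 51.1 and 58.0 TPM in Tet2 KO and 28.7 and 29.0 TPM in WT, a change of 0.89 ± 0.20 (limma adjusted p = 0.00140). Hdac7 did not follow them, at 13.3 and 15.3 TPM in Tet2 KO and 19.0 and 18.5 TPM in WT (change -0.37 ± 0.26, limma adjusted p = 0.250). Ratios within a library do not depend on scaling. The ratio of Hdac4 to Hdac1 was 0.447 and 0.428 in Tet2 KO and 0.0911 and 0.0960 in WT, and that of Hdac5 to Hdac1 was 0.875 and 0.852 against 0.271 and 0.276. These pairs were chosen after their values were seen. The scaffolds that carry the class I enzymes were not called: Ncor1 had 111 and 104 TPM in Tet2 KO and 95.1 and 93.9 TPM in WT, and Sin3a had 45.9 and 45.2 TPM against 44.7 and 43.1 TPM.

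**Figure D4:**
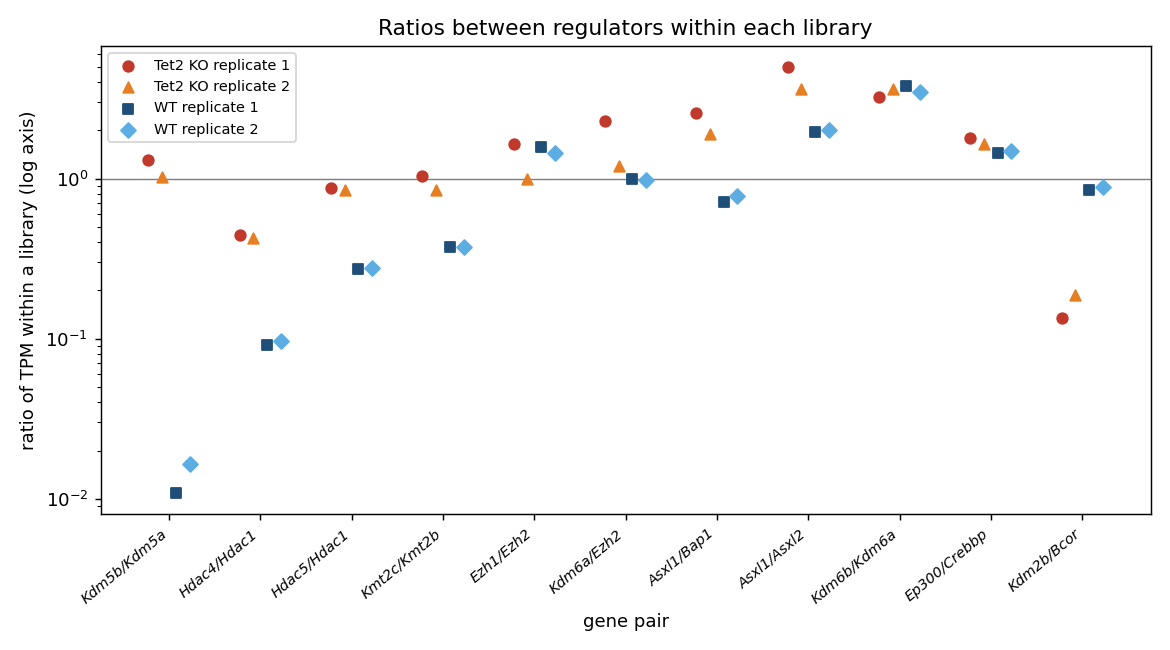
Ratio of the TPM of 2 genes within each library (vertical axis, log scale) for 11 gene pairs chosen after their values were seen, with a point for each of the 4 libraries. Tet2 KO libraries lie above WT for Kdm5b to Kdm5a, Hdac4 to Hdac1 and Asxl1 to Bap1 and below for Kdm2b to Bcor, and the groups overlap for Ezh1 to Ezh2 and for Kdm6b to Kdm6a.

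The acetyltransferase pair, whose products are coactivators, pointed upward. Ep300 had 150 and 134 TPM in the Tet2 KO libraries and 88.7 and 90.9 TPM in WT, a change of 0.65 ± 0.20 (limma adjusted p = 0.0143) that was lost with limma's plain variance fit (no abundance trend, not robust). Crebbp had 83.6 and 81.1 TPM in Tet2 KO and 61.8 and 61.5 TPM in WT. Its change of 0.41 ± 0.19 did not pass (limma adjusted p = 0.0828), but did under both other totals, at adjusted p = 0.00525 with ERCC scaling and 0.0254 without the most abundant genes.

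Remodelling proteins were mostly not called. Smarca4, the ATPase gene of the SWI/SNF complex, had 62.4 and 66.0 TPM in Tet2 KO and 88.2 and 87.1 TPM in WT (change -0.44 ± 0.19, limma adjusted p = 0.0628). Chd4, the NuRD ATPase gene, had 147 and 137 TPM in Tet2 KO and 200.2 and 198 TPM in WT (change -0.49 ± 0.21, limma adjusted p = 0.0660). Arid1a, a DNA-binding SWI/SNF subunit gene, had the opposite sign, at 103 and 99.8 TPM in Tet2 KO and 77.2 and 73.8 TPM in WT (change 0.42 ± 0.19, limma adjusted p = 0.0848). With both WT libraries as samples these 3 genes passed, Smarca4 and Chd4 as lower and Arid1a as higher. Arid2 had 32.3 and 29.4 TPM in Tet2 KO and 35.8 and 35.6 TPM in WT and was not called. Phf6, an X-linked PHD finger gene mutated in human leukaemias, had 10.4 and 12.6 TPM in Tet2 KO and 22.6 and 22.8 TPM in WT. It fell by 0.93 ± 0.27 (limma adjusted p = 0.00886), a call lost with ERCC scaling (change -0.37, adjusted p = 0.166).

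Of 4 H3K9 methyltransferase genes, 1 was called (all genes 49.0%). Ehmt1 had 16.0 and 17.5 TPM in the Tet2 KO libraries and 25.3 and 26.9 TPM in WT, and its partner in the G9a-GLP complex, Ehmt2, had 35.8 and 42.2 TPM against 52.0 and 51.9 TPM. Ehmt1 fell by 0.61 ± 0.24 (limma adjusted p = 0.0468). That call was lost with ERCC scaling, without the most abundant genes, with quantile normalization, with limma's plain variance fit, and without WT replicate 2. Ehmt2, with a change of -0.41 ± 0.20, did not pass (limma adjusted p = 0.102). Setdb1, which silences retroelements, had 23.3 and 27.9 TPM in Tet2 KO and 30.2 and 31.4 TPM in WT and was not called. Suv39h1, which methylates H3K9 in heterochromatin, had 31.7 and 45.7 TPM in Tet2 KO and 33.5 and 31.6 TPM in WT. It was not called. Its value was higher in Tet2 KO replicate 2, the library with more Mki67, as were those of Ezh2 and of all members called lower except Kdm1a. Tet2 KO replicate 2 also had the lower sum of neutrophil genes and less Xist. The part of proliferation in the members' values was not tested.

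Partners and relatives of the members were drawn from 14 lists of complexes and families. Of 192 tested genes in these lists that are not members, 44 were higher, 39 lower and 109 not called, with a median change of -0.02. The shares were 22.9% higher and 20.3% lower, against 22.3% and 26.7% of all tested genes, which are also the shares to read the counts of single lists against. With ERCC scaling 96 were higher (all genes 41.6%) and 14 lower (all genes 12.5%). When the most abundant genes were left out, the counts were 56 higher (all genes 26.0%) and 28 lower (all genes 18.8%). Without Tet2 KO replicate 1 they were 78 and 79, and without Tet2 KO replicate 2 they were 76 and 88.

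Of 8 tested PRC2 accessory genes 3 were higher and 2 lower, with a median change of 0.04. Jarid2, which recruits PRC2, had 32.0 and 30.8 TPM in the Tet2 KO libraries and 151 and 153 TPM in WT and fell by 2.24 ± 0.19 (limma adjusted p = 8.75e-08). Aebp2, a subunit of the same PRC2 form, had 24.8 and 28.4 TPM in Tet2 KO and 82.5 and 81.2 TPM in WT and fell by 1.59 ± 0.20 (limma adjusted p = 8.54e-06). Mtf2, a subunit of the alternative form, was higher by 0.62 ± 0.22, a call lost with limma's plain variance fit (no abundance trend, not robust). With ERCC scaling Jarid2 and Aebp2 were still called lower, at changes of -1.65 and -1.01. Among 22 PRC1 genes 4 were higher, 7 lower and 11 not called, with a median of -0.23. Cbx6, a chromobox gene, had 0.28 and 0.36 TPM in Tet2 KO and 9.21 and 8.73 TPM in WT and fell by 2.92 ± 0.27 (limma adjusted p = 2.79e-07). Yaf2, a PRC1 subunit gene, was higher by 2.11 ± 0.24 (limma adjusted p = 2.55e-06).

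Among other demethylases 4 of 17 were higher and 0 lower by limma (1 of the negative changes, that of Kdm1b, had an unadjusted p under 0.05, at 0.0350), led by Jmjd1c at 226 and 214 TPM in Tet2 KO and 62.4 and 64.4 TPM in WT, and Kdm7a rose by 0.77 ± 0.19. Among other deacetylases 3 of 10 were higher and 3 lower. Sirt1, a NAD-dependent deacetylase gene, had 63.5 and 62.5 TPM in Tet2 KO and 26.1 and 27.0 TPM in WT. The class IIa gene Hdac9 stood at 0.04 and 0.07 TPM in Tet2 KO and 2.30 and 2.28 TPM in WT. Of 23 corepressor subunits 5 were higher and 4 lower, and changes were -1.78 ± 0.19 for Sap30 of the SIN3 complex and -1.96 ± 0.27 for Mta3 of NuRD. Ncoa3, a nuclear receptor coactivator gene in the acetyltransferase list, had 254 and 244 TPM in Tet2 KO and 95.0 and 95.3 TPM in WT, whereas Kat2a, encoding GCN5, had 11.9 and 15.3 TPM against 36.3 and 35.8 TPM.

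Arginine methyltransferases had the largest share of lower calls among the 14 lists, 6 of 8 with 1 higher, and a median of -1.03. Carm1, a coactivator enzyme gene, had 10.2 and 11.9 TPM in Tet2 KO and 29.1 and 30.8 TPM in WT, and Prmt1, the main type I enzyme gene, had 33.9 and 45.4 TPM against 84.6 and 85.7 TPM. With ERCC scaling 2 of the 8 were lower (all genes 12.5%) and 1 higher (all genes 41.6%), and the median was -0.48. In the remaining lists, Mllt6, an MLL fusion partner gene, had 19.1 and 21.6 TPM in Tet2 KO and 125 and 125 TPM in WT and fell by 2.57 ± 0.20 (limma adjusted p = 4.35e-08). Setdb2, an H3K9 methyltransferase gene known to be induced by interferon, had 5.43 and 7.16 TPM in Tet2 KO and 50.4 and 45.9 TPM in WT and fell by 2.76 ± 0.28 (limma adjusted p = 7.37e-07). In the same libraries 16 of 16 tested interferon-induced genes were lower, and the part of that response in the change of Setdb2 was not tested. Chd7, a remodeller gene, rose by 1.23 ± 0.19 and Chd9 fell by 2.15 ± 0.28. Smarca2, the alternative ATPase gene of SWI/SNF, had 43.7 and 37.0 TPM in Tet2 KO and 17.9 and 18.5 TPM in WT (limma adjusted p = 0.000567).

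**Figure D5:**
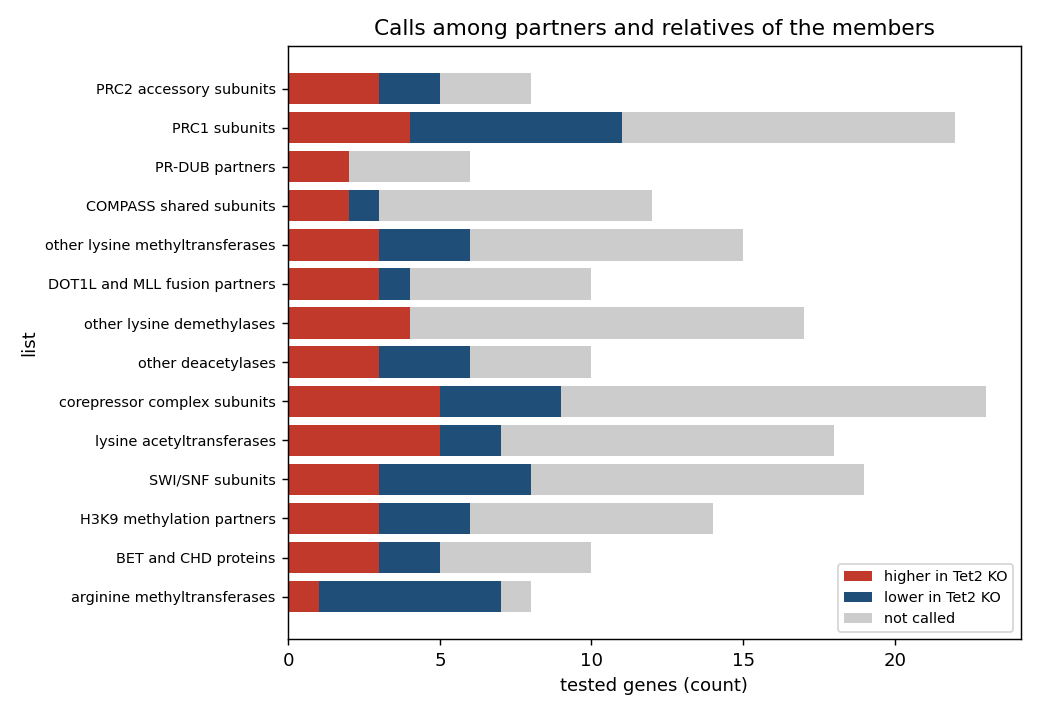
Number of tested genes (horizontal axis) called higher, called lower or not called in the Tet2 KO libraries for each of the 14 lists of partners and relatives (vertical axis). Arginine methyltransferases have 6 of 8 genes called lower, and other lysine demethylases have 4 of 17 called higher and 0 lower.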

How the data were processed

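The authors deposited gene-level TPM for 4 libraries over 24589 rows, of which 92 are ERCC spike-ins. Per the submitters' processing notes the tools were STAR and RSEM and the build was mm10. No tool version is stated, and which annotation was used is likewise not given. Per the labels' protocols, the mRNA library kit was stranded. Of the per-sample columns, 0 were left unused.

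TPM states no depth. From values of single-transcript genes, taken as multiples of the value of 1 read after 200 nt were taken off the length, it was estimated at 10.4 to 13.2 M reads (M, 1000000) with median transcript lengths and 24.2 to 30.5 M with the longest. Within 0.2 of a whole multiple lay 74.7% to 80.1% of these values. The estimate is approximate, and no counting interval is given.

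On log2(TPM + 1), limma 3.58.1 (R 4.3.3) compared both Tet2 KO libraries with the mean of both WT libraries, using trended, robust moderated variances. This takes the single WT value to be as variable as those of Tet2 KO. A gene entered if 2 or more libraries reached 1 TPM. Adjusted p-values are two-sided Benjamini-Hochberg values over 11919 genes. The script was tested on simulated data. A log2 change carries its standard error and a mean TPM the SD of its Tet2 KO values.

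Members and lists were chosen with earlier results of these data known. Named genes are the 43 members, Tet2, Kdm5c, Kdm5d, Uty and, of the up to 2 called genes with the smallest p in each direction of each list, a selection. Others were chosen after their values were seen. Coordinates are from GENCODE M21 on mm10, counted from 1, in which all 43 members matched 1 gene. The 15 alternatives are in the closing section. RefSeq promoter windows were matched by symbol.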

Additional observations from a re-analysis of the deposited data

How the results depend on the processing

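Of 15 alternatives, pseudocounts of 0.1 and 0.5, a filter of 5 TPM and leaving out WT replicate 1 changed no call among the members. Without the filter 0 members passed (15 had an unadjusted p under 0.05), 0 other chromatin regulators were higher and 0 lower (77 had an unadjusted p under 0.05), and of all genes 121 were higher and 288 lower by limma; the cause was not tested. ERCC scaling gave 26 higher and 1 lower members, 96 and 14 other chromatin regulators and 4964 and 1489 genes, against 2662 and 3177 as reported. With it Setd1a and Men1, not called as reported, turned from changes of -0.02 and -0.04 to called ones of 0.56 and 0.54. Rescaling without ERCC, Rn45s and the 20 most abundant genes left 3 lower members. With limma's plain variance fit (no abundance trend, not robust) 24 other chromatin regulators were higher. With both WT libraries as samples 13 members and 71 other chromatin regulators were lower.

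The replicate block, fitted with both WT libraries as samples, gave 12 lower members and 68 lower other chromatin regulators. Same-numbered libraries share only a number (the correlation of deviations was -0.011 over 11919 genes), and the block called 14 members higher. Leaving out each library in turn, with both WT libraries as samples where a Tet2 KO library was left out, gave 11 to 20 higher and 6 to 16 lower members, 41 to 78 and 38 to 88 other chromatin regulators, and 2651 to 4321 and 3192 to 5674 genes. The limits are 2 libraries a group, no residual replicate in WT, and TPM without stated depth. A gene called under neither setting was not read for direction.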
